A study of Mus musculus with 6 samples.

Results

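The 10 genes described here are the mouse counterparts of genes linked to human glaucoma: Cav1, Cav2, Cyp1b1, Myoc, Optn, Tbk1, Wdr36, Six6, Tmco1 and Fndc3b. They were taken by name from a table of 55335 genes, in which each has 1 row. In glaucoma the ganglion cells of the retina, which send their axons to the brain through the optic nerve, are lost, often under raised eye pressure. RNA was measured in retinas of C57BL/6 mice aged 10 weeks, labelled wild type, after a pull-down with an antibody to the HA peptide tag that was used to obtain RNA of ganglion cells. The labels do not say which protein carried the tag or which driver expressed it. There were 3 naive libraries and 3 SOHU libraries, SOHU being silicone oil-induced ocular hypertension, in which oil injected into the front chamber of the eye raises its pressure, here 1 week before the retina was taken. None of the 6 libraries came from eyes injected with another fluid, so the injection, the oil and the raised pressure cannot be told apart.

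The human genes act in different places. CYP1B1 and MYOC are the classical genes of congenital and open-angle glaucoma and act largely in the drainage tissue at the front of the eye, MYOC encoding the secreted protein myocilin. OPTN and TBK1 are linked to glaucoma at normal pressure and encode an autophagy receptor and the kinase that phosphorylates it. The loci of CAV1 and CAV2, SIX6, TMCO1 and FNDC3B came from association studies of pressure, the optic disc or the disease, and WDR36 from linkage in families.

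Libraries held 21691354 to 26824919 counted reads. Levels are given in CPM (read counts relative to library size, scaled between libraries with TMM, the trimmed mean of M values), as mean ± SD over 3 libraries, and changes as SOHU minus naive on the log2 scale from edgeR's quasi-likelihood test. A gene was called at a Benjamini-Hochberg adjusted p under 0.05 over the 17687 genes tested. Whether replicate libraries were made from different animals is not labelled, so the p-values describe sample-to-sample spread that may be purely technical. The ganglion cell marker list summed to 4680 to 7902 CPM in naive and 2464 to 3398 CPM in SOHU libraries, and 15 of its 17 genes were called lower. The list of Müller glia and astrocytes, the support cells of the retina, summed to 10845 to 13350 CPM in naive and 18148 to 35436 CPM in SOHU libraries, and 8 of its 12 genes tested were called higher. The list of amacrine and horizontal cells, other neurons of the retina, also fell, from 1841 to 2063 CPM in naive to 1040 to 1401 CPM in SOHU libraries. Of its 12 genes 3 were called lower and 0 higher, with a median of -0.73. The bipolar cell list had a median of -0.52, with 1 of 10 genes higher and 1 lower, and its sums overlapped. The rod list summed to 4960 to 6060 CPM in naive and 4571 to 7594 CPM in SOHU libraries, so the pull-downs also held RNA of other cells. In such bulk samples fewer cells of a type, less RNA per cell and a changed recovery of tagged or untagged RNA in the pull-down cannot be told apart.

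Cav1, Cav2, Cyp1b1 and Fndc3b were higher in SOHU, by 1.81- to 2.23-fold. Optn, Tbk1, Wdr36, Six6 and Tmco1 did not pass the test, and Myoc was too low to be tested. Thus 4 of 9 genes tested were called higher, beside 8.02% of all genes tested, and 0 lower, beside 5.93% (13.9% in either direction). The same shares of all genes are the measure for the counts in the related lists below. The genes and lists were chosen with earlier results of these data known, so such counts are no test of the genes as a set. Cav1 and Cav2, both among those called, are neighbouring genes. For the lower side, edgeR gave 1 of the 9 at an unadjusted p under 0.05, Optn, which DESeq2 called lower and limma-voom did not. The median change of the 9 genes was 0.34, against 0.01 over all genes tested. Naive and SOHU libraries did not overlap in 6 of the 9, beside 39.0% of all genes tested. For a single gene the exact two-sided permutation test cannot go below p = 0.1 with 3 libraries against 3, and it gave that value for each of these 6.

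**Figure D1:**
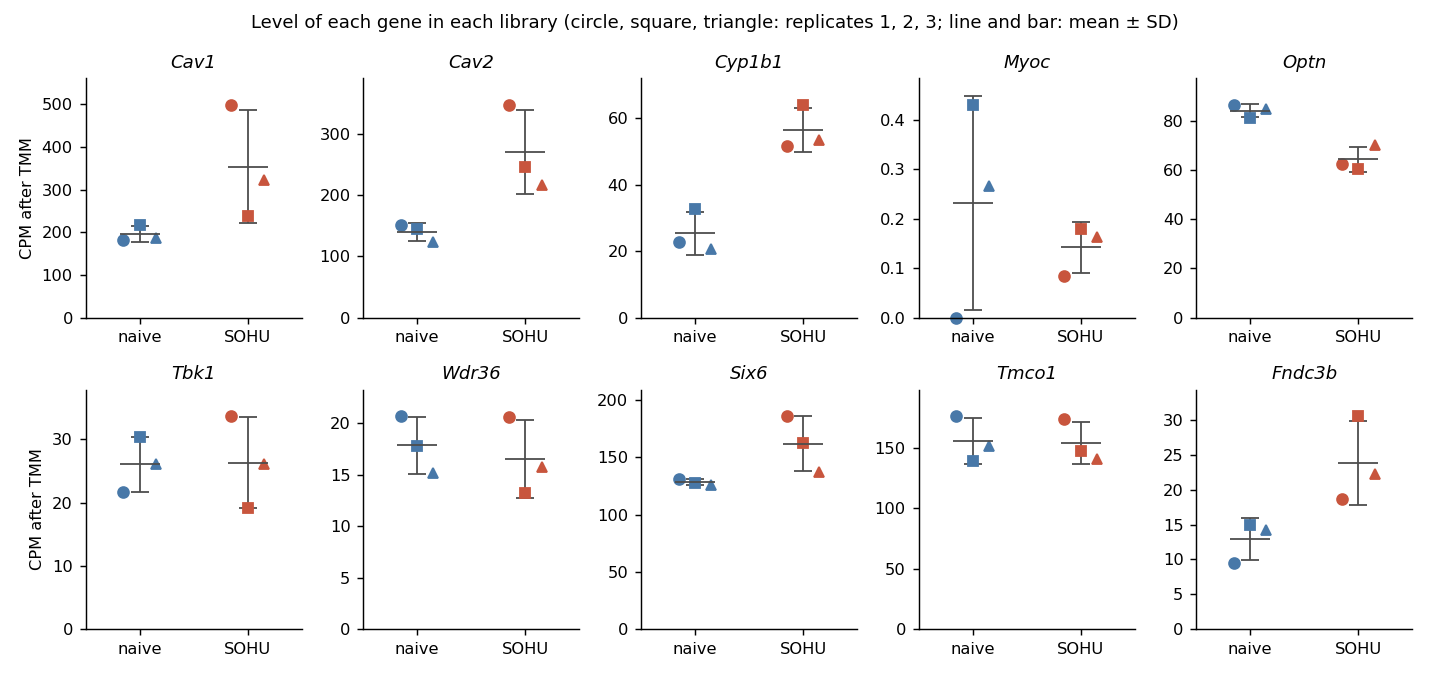
CPM after TMM of the 10 genes in each library, with a panel and a linear axis from 0 for each gene; points are libraries, lines and bars the mean ± SD of 3. The SOHU libraries lie above the naive ones for Cav1, Cav2, Cyp1b1, Fndc3b and Six6 and below them for Optn.

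The levels themselves spanned a wide range. Per kilobase of exon, in RPKM (CPM divided by the exon length in kilobases), Cav1 was the highest of the 10 in naive libraries with 56.6 ± 5.37 RPKM, followed by Cav2 with 41.8 ± 4.39 RPKM (SD, n = 3 each). Tmco1 (32.7 ± 3.98 RPKM) and Six6 (32.0 ± 0.62 RPKM) came next and overlapped with each other in their libraries, and the range of Tmco1 also overlapped with that of Cav2. Optn had 22.4 ± 0.70 RPKM. Tbk1 (6.66 ± 1.13 RPKM) and Cyp1b1 (4.34 ± 1.10 RPKM) overlapped, and Wdr36 (2.06 ± 0.32 RPKM), Fndc3b (1.12 ± 0.26 RPKM) and Myoc (0.112 ± 0.105 RPKM) followed without overlap. In SOHU libraries Cyp1b1, at 9.65 ± 1.14 RPKM, stood above Tbk1, at 6.74 ± 1.85 RPKM, with no overlap. Fndc3b (2.08 ± 0.53 RPKM) and Wdr36 (1.91 ± 0.44 RPKM) overlapped there, as did Cav1 with Cav2 and Six6 with Tmco1.

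**Figure D2:**
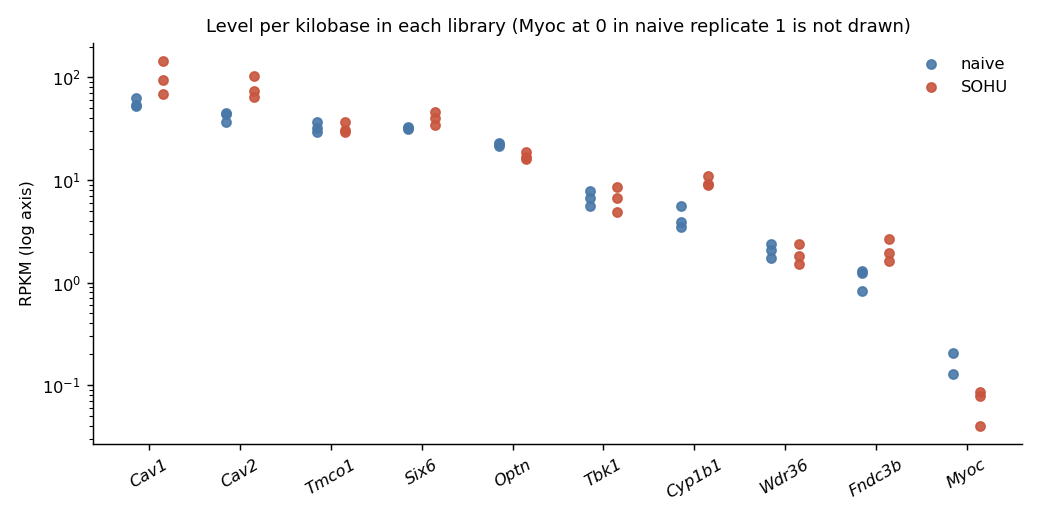
RPKM (log axis) of the 10 genes in each of 3 naive and 3 SOHU libraries, ordered by the naive mean. The caveolin genes Cav1 and Cav2 are the highest and Myoc the lowest in both groups.

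Cav1 and Cav2 encode the caveolins of non-muscle cells, membrane proteins that form the coat of caveolae, small pits of the cell surface that take part in mechanical sensing, lipid handling and signalling. In the eye they are known in vessels, in the drainage tissue and in Müller glia. The genes are neighbours on mm10 chromosome 6: Cav2 (ENSMUSG00000000058.6) runs from 17281185 to 17289115 and Cav1 (ENSMUSG00000007655.16) from 17306335 to 17341452, both on the plus strand, and neither shares exon bases with another gene of the files.

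As both rose, the 250 bases before their first start sites are shown, at chr6:17306085-17306334 for Cav1 and chr6:17280935-17281184 for Cav2 (plus strand, GRCm38.p6, the build that mm10 names, from RefSeq). Capitals mark the GC box GGGCGG, on either strand, a site of Sp-family factors.
Cav1: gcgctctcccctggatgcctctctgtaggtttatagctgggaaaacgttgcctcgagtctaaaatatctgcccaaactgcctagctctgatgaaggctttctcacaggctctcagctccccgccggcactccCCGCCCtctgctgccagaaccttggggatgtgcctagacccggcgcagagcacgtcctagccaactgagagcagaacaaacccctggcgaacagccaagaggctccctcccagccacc
Cav2: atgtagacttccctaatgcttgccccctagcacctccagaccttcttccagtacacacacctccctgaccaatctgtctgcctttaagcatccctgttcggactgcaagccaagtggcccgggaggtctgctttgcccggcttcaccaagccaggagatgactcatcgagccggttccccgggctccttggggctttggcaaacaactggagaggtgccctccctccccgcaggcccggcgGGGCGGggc
Each stretch held 1 GC box, at -118 from the start for Cav1 and at -9 for Cav2. Of 32851 windows of this length before RefSeq start sites, 32.7% held at least 1, so the match is common. GC content was 59.6% for Cav1 and 62.0% for Cav2, with a median of 52.4% over all windows.

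Cav1 stood at 182, 216 and 187 CPM in naive replicates 1 to 3 and at 498, 239 and 323 CPM in SOHU replicates 1 to 3. SOHU replicate 1 was by far the highest library, and SOHU replicate 2 only just exceeded naive replicate 2. The mean went from 195 ± 18.5 to 353 ± 132 CPM (SD, n = 3 each), a 1.81-fold rise (log2 fold change 0.86, SE 0.23, 95% interval 0.33 to 1.38, edgeR adjusted p = 0.041). Without SOHU replicate 1 the change was 0.52 and not called (adjusted p = 0.0582).

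Cav2 stood at 150.5, 145 and 123 CPM in naive and at 347, 246 and 217 CPM in SOHU replicates 1 to 3. Here too SOHU replicate 1 was the highest library, but all 3 SOHU libraries lay well clear of the naive ones. The mean went from 139.6 ± 14.6 to 269.9 ± 68.5 CPM (SD, n = 3 each), a 1.93-fold rise (0.95, SE 0.18, 95% interval 0.54 to 1.36, edgeR adjusted p = 0.0155). The ratio of Cav1 to Cav2 in RPKM was 1.17, 1.44 and 1.47 in naive and 1.39, 0.943 and 1.44 in SOHU libraries. These ratios overlapped (exact two-sided permutation p = 0.5; adjusted p = 0.5 over 3 such ratios), so a shift between the caveolins was not detectable with 3 libraries a group.

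Other genes of the caveola and their relatives moved unevenly. In a list of 12 genes of its coat and rim, relatives included, 6 of 11 tested were higher and 1 was lower, with a median of 0.80. Apart from Cav1 and Cav2, 4 of 9 were higher and 1, the neuronal gene Pacsin1, was lower. DESeq2 called 5 higher and 2 lower, and edgeR with the replicate block 3 higher and 1 lower. Cavin1, the cavin that is needed to build caveolae, rose 2.63-fold, from 9.68 ± 2.82 to 25.4 ± 9.06 CPM (edgeR adjusted p = 0.0209). Pacsin3, which encodes a membrane-bending protein, rose from 33.8 ± 5.49 to 60.9 ± 8.92 CPM (adjusted p = 0.0172). Its neuronal relative Pacsin1 fell, from 726 ± 24.3 to 350 ± 89.3 CPM (log2 fold change -1.05, adjusted p = 0.0127). With libraries scaled to the ganglion cell markers Pacsin1 stood at -0.04, or -1.08 relative to the median of all genes in that fit. This scaling shifts all genes by about the same amount. Here and below, a value relative to that median therefore nearly repeats the unscaled change and is not a further test. Cavin3 rose 1.46-fold, and Cav3, the caveolin of muscle, was called higher from a trace level of 0.159 ± 0.17 CPM to 0.984 ± 0.404 CPM. Cavin2 (-0.28), Pacsin2 (-0.20), Ehd2 (0.80) and Ehd4 (-0.51) did not pass.

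Markers of other cells that carry caveolins were read in the same libraries. The endothelial list summed to 366 to 402 CPM in naive and 716 to 1034 CPM in SOHU libraries, and 2 of its 9 genes tested were called, the VEGF receptor genes Kdr (2.50-fold higher) and Flt1 (2.14-fold higher). Kdr alone made up most of that sum, with 269 to 301 CPM in naive and 562 to 855 CPM in SOHU libraries. The other 7 genes tested were not called by edgeR. Of the genes too low to test, Cdh5, the cadherin of endothelial junctions, had at most 2 reads in a library and 0 in 3 of them, Pecam1 had 3 to 13 reads and Tie1 0 to 10 reads. Egfl7, at 19.1 ± 4.48 and 15.7 ± 1.58 CPM, and Esam, at 8.79 ± 1.43 and 5.36 ± 0.78 CPM in naive and SOHU, were present and not called. Cldn5, at 0.99 ± 0.19 and 2.46 ± 1.92 CPM, was not called either, and Tek, Vwf, Emcn and Slco1a4 had means of 0.23 to 1.09 CPM. The Müller glia and astrocyte list rose by a median of 1.15, for example Slc1a3, the glial glutamate transporter gene, at 347 to 429 CPM in naive and 628 to 1310 CPM in SOHU libraries. SOHU replicate 1 was also the highest library in the sum of that list, with 35436 CPM, and the part of either list in the rise of the caveolin genes was not tested.

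Cyp1b1 encodes a cytochrome P450 enzyme that oxidises steroids, retinoids and other lipids, and its transcription is known to be induced by the aryl hydrocarbon receptor. The gene (ENSMUSG00000024087.4) lies on mm10 chromosome 17, 79701537 to 79715061, minus strand, and shares no exon bases with another gene. It stood at 22.8, 32.6 and 20.5 CPM in naive and at 51.6, 64.0 and 53.5 CPM in SOHU replicates 1 to 3. Every SOHU library was higher than every naive library, and replicate 2 was the highest of its group in both. The mean rose 2.23-fold, from 25.3 ± 6.42 to 56.4 ± 6.67 CPM (SD, n = 3 each; log2 fold change 1.16, SE 0.19, 95% interval 0.72 to 1.59, edgeR adjusted p = 0.0119).

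The 250 bases before the start of Cyp1b1 are shown because the receptor named above binds the core letters GCGTG, which are in capitals on either strand (chr17:79715062-79715311, minus strand, GRCm38.p6, RefSeq).
Cyp1b1: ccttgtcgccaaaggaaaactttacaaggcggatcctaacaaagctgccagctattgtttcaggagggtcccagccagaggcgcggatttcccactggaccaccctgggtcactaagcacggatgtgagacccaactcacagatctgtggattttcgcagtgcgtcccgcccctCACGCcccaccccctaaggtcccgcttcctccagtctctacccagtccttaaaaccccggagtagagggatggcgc
The core was found 1 time, at -76 from the start, without overlap with the GC box in the same window. Such a core was present in 28.2% of the 32851 windows. In the list of the receptor and its targets, 2 of 9 genes tested were higher and 0 lower: Cyp1b1 and the receptor gene Ahr, which went from 11.65 ± 0.38 to 18.05 ± 1.18 CPM (1.55-fold, edgeR adjusted p = 0.0325). DESeq2 called 3 higher and 1 lower in this list, and edgeR with the replicate block 1 higher. The receptor's partner genes Arnt (0.49, adjusted p = 0.0923) and Arnt2 (-0.55, adjusted p = 0.0539) and the target genes Nqo1 (0.90), Tiparp (0.23) and Ahrr (0.68) did not pass. Cyp1a1, the best known target, had a mean of 0.195 CPM in naive and 0.226 CPM in SOHU libraries and was not tested, and Cyp1a2 had 0 reads in all 6 libraries.

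Cyp1b1 is also a gene of pericytes and of the ciliary body. The list of pericytes and fibroblasts summed to 33.8 to 51.6 CPM in naive and 69.3 to 76.4 CPM in SOHU libraries, and 1 of its 7 genes tested was called, Pdgfrb (2.42-fold higher). Rgs5, a main pericyte gene, was at 18.2 ± 6.82 and 33.7 ± 6.90 CPM and missed the threshold (0.89, adjusted p = 0.0624), and Col1a2, a collagen gene of fibroblasts, was at 11.8 ± 2.16 and 9.77 ± 2.62 CPM. Cspg4 had 7 to 10 reads in naive and 6 to 44 reads in SOHU libraries, and Des, Lum, Col1a1 and Col3a1 were at 0 in at least 1 library. The list of the ciliary body, iris and pigment epithelium summed to 31.9 to 32.3 CPM in naive and 25.7 to 56.3 CPM in SOHU libraries, with 0 of 8 called by edgeR. The part of these cells in the rise of Cyp1b1 was not tested.

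Fndc3b encodes a membrane protein with fibronectin type III domains. The gene (ENSMUSG00000039286.12; mm10 chromosome 3, 27416162 to 27711307, minus strand) stood at 9.43, 14.9 and 14.3 CPM in naive and at 18.7, 30.5 and 22.3 CPM in SOHU replicates 1 to 3. All SOHU libraries lay above all naive ones, the lowest SOHU library being replicate 1, which was the highest for the caveolin genes. Fndc3b rose 1.85-fold, from 12.9 ± 3.01 to 23.8 ± 6.07 CPM (SD, n = 3 each; 0.89, SE 0.24, 95% interval 0.35 to 1.42, edgeR adjusted p = 0.039). Its closest relative Fndc3a changed by 0.38 and did not pass (adjusted p = 0.122). Of the 8 FNDC genes tested, Fndc3b alone was called by edgeR.

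Optn encodes optineurin, which links ubiquitin-tagged cargo such as damaged mitochondria to the autophagy membrane. The gene (ENSMUSG00000026672.11; mm10 chromosome 2, 5020642 to 5064051, minus strand) stood at 86.4, 81.2 and 84.8 CPM in naive and at 62.5, 60.3 and 70.1 CPM in SOHU replicates 1 to 3. The SOHU libraries were all lower, and the naive libraries were close to each other. It shares 73 exon bases with the antisense gene 4930551O13Rik, which had 33 reads against 10626. The means were 84.2 ± 2.64 and 64.3 ± 5.13 CPM (SD, n = 3 each), with a log2 fold change of -0.39 (SE 0.12, 95% interval -0.67 to -0.11) that missed the threshold in edgeR (adjusted p = 0.0668). It passed in DESeq2 (adjusted p = 0.0485) and, in edgeR, without SOHU replicate 3 (adjusted p = 0.0461). Scaled to the ganglion cell markers, Optn turned to 0.64. That scaling moved the median of all genes from 0.01 to 1.04. Relative to this median Optn stood at -0.40, which by construction nearly repeats the unscaled value.

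Tbk1, the kinase gene, did not differ beyond its spread. It (ENSMUSG00000020115.3; mm10 chromosome 10, 121546455 to 121586787, minus strand) stood at 21.6, 30.4 and 26.1 CPM in naive and at 33.6, 19.2 and 26.2 CPM in SOHU replicates 1 to 3, so that SOHU held both the highest and the lowest library. The log2 fold change was 0.02 (95% interval -0.48 to 0.51, edgeR adjusted p = 0.968), which leaves room for a change of either sign. The ratio of Optn to Tbk1 in RPKM was 2.78 to 4.17 in naive and 1.94 to 3.27 in SOHU libraries and overlapped (exact two-sided permutation p = 0.3; adjusted p = 0.45 over 3 such ratios).

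The wider set of TBK1 partners, autophagy receptors and ATG8 proteins, which coat the autophagy membrane, had a median of -0.07. Of 31 tested, 5 were higher and 1 was lower, beside 8.02% and 5.93% of all genes tested. Gabarapl1, an ATG8 gene, fell from 517 ± 73.4 to 298 ± 15.0 CPM (log2 fold change -0.79, edgeR adjusted p = 0.0128), a value that became 0.26 when scaled to the ganglion cell markers, or -0.78 relative to the median of all genes there. Myo6, the motor that binds optineurin, rose 1.57-fold (adjusted p = 0.0298), and Rab8b, a relative of the GTPase RAB8A that optineurin binds, 2.32-fold (adjusted p = 0.0154). Rab8a itself did not pass (-0.08, edgeR adjusted p = 0.816). The TBK1 partner genes Tank (0.23), Azi2 (0.03) and Tbkbp1 (-0.45) did not pass either. Irf3, the transcription factor activated by TBK1, rose 1.54-fold, and Mavs and Ticam1, adaptors of innate immunity upstream of the kinase, rose 2.14- and 2.43-fold. The microglia and macrophage list, the immune cells of the retina, summed to 8.59 to 37.3 CPM in naive and 51.8 to 142 CPM in SOHU libraries, with 5 of 12 genes higher and a median of 1.76, and its part in these rises was not tested. The receptor gene Sqstm1 went from 936 ± 63.8 to 722 ± 61.7 CPM and did not pass (-0.37, adjusted p = 0.0865). Tax1bp1 (-0.08), Nbr1 (0.22) and Calcoco1 (-0.12), further receptor genes, did not pass either. DESeq2 called 5 of the 31 higher and 3 lower, and edgeR with the replicate block 3 higher and 1 lower.

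Six6 encodes a homeodomain transcription factor of eye development. The gene (ENSMUSG00000021099.6; mm10 chromosome 12, 72939892 to 72944899, plus strand) stood at 131, 128 and 126 CPM in naive and at 186, 163 and 137 CPM in SOHU replicates 1 to 3. The naive libraries were close together and the SOHU libraries all lay above them. The means were 128 ± 2.49 and 162 ± 24.2 CPM (SD, n = 3 each), with a log2 fold change of 0.34 (SE 0.14, 95% interval 0.03 to 0.65) that did not pass (edgeR adjusted p = 0.132). It passed without SOHU replicate 3 (0.46, adjusted p = 0.0365). A total of 192 exon bases, 4.79% of the gene, are shared with 4930447C04Rik on the opposite strand, which had 2762 reads in the 6 libraries against 20710 for Six6, and without a stated strand setting the reads of this stretch cannot be assigned.

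Beside Rbpms, a pan-ganglion-cell marker gene, Six6 stood at a ratio in RPKM of 0.859, 1.30 and 1.15 in naive and 3.06, 2.93 and 1.73 in SOHU libraries, with no overlap (exact two-sided permutation p = 0.1, the smallest possible; adjusted p = 0.3 over 3 such ratios). Rbpms itself fell from 196 ± 46.8 to 107 ± 20.4 CPM (log2 fold change -0.88, edgeR adjusted p = 0.0223), so the higher ratio is not a result about Six6 alone. Six3, a relative of Six6, was at 235 ± 11.9 and 216 ± 44.3 CPM and did not pass. In the list of Six6, its relatives and the Eya and Dach cofactor genes 2 of 12 were higher and 0 lower in edgeR, Dach1 (1.62-fold, adjusted p = 0.0143) and Six5 (2.44-fold, adjusted p = 0.0291), while DESeq2 called 2 higher and 1 lower. Over all genes tested edgeR called 8.02% higher and 5.93% lower. Among 10 eye field and progenitor factors 5 were higher and 0 lower, in DESeq2 as in edgeR. Among these were Sox9 (2.20-fold), Sox2 (1.97-fold), Rax (2.25-fold) and Lhx2 (1.81-fold), which adult Müller glia also express. The Müller glia list given above rose in the same libraries, and its part was not tested. Pax6 (-0.31) and Otx2 (-0.12) did not pass.

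Tmco1 encodes a membrane protein of the endoplasmic reticulum that has been described as a calcium leak channel and as part of a translocon, the machinery that inserts membrane proteins. The gene (ENSMUSG00000052428.10; mm10 chromosome 1, 167308378 to 167333978, plus strand) stood at 176, 139 and 152 CPM in naive and at 174, 147 and 141 CPM in SOHU replicates 1 to 3. The libraries overlapped over nearly their whole range. SOHU minus naive was -0.02 on the log2 scale (SE 0.14, 95% interval -0.33 to 0.30, edgeR adjusted p = 0.954). Of 10 genes of this translocon and the Sec61 channel, Sec61b alone was called (1.52-fold higher, adjusted p = 0.0318), beside 13.9% of all genes tested in either direction. The partner genes Ccdc47 (-0.20), Nomo1 (-0.39), Ncln (0.24) and Tmem147 (0.15) did not pass.

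Wdr36 encodes a protein of the UTP-B complex, which acts in the assembly of the small ribosomal subunit in the nucleolus. The gene (ENSMUSG00000038299.16) stood at 20.7, 17.8 and 15.1 CPM in naive and at 20.6, 13.2 and 15.8 CPM in SOHU replicates 1 to 3, again with overlap. SOHU minus naive was -0.11 on the log2 scale (SE 0.21, 95% interval -0.58 to 0.35, edgeR adjusted p = 0.752). None of the 6 UTP-B genes was called by edgeR, DESeq2 or limma-voom, and 0 had an unadjusted p under 0.05 in edgeR. Their changes ran from -0.26 for Utp18 to -0.04 for Utp6, with a median of -0.18, and all became positive, at 0.76 to 0.97, in the fit scaled to ganglion cell markers. In that fit Wdr36 had 0.94 and Tmco1 1.05, against the 1.04 of all genes.

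Myoc (ENSMUSG00000026697.10; mm10 chromosome 1, 162639155 to 162649693, plus strand) was close to the limit of detection. The antisense gene Myocos shares 93 of its exon bases and had 4 reads against 26. Myoc had 0, 10 and 6 reads in naive and 2, 4 and 4 reads in SOHU replicates 1 to 3. The count of 0 in naive replicate 1 allows up to 0.112 CPM (3 reads of the library's total, counting error only). No difference was detectable at this depth. With no filter on low counts edgeR gave -0.71 (SE 1.12, adjusted p = 0.744). Other genes with an olfactomedin domain, the part of myocilin that carries most disease mutations, were better measured, and 2 of 11 tested were higher and 2 lower. The shares over all genes tested were 8.02% and 5.93%. Olfm1 fell from 761 ± 123 to 419 ± 115 CPM (-0.86, adjusted p = 0.0264) and Olfml3 from 64.1 ± 2.60 to 41.6 ± 7.93 CPM (-0.62, adjusted p = 0.0326), values that turned to 0.17 and 0.37 in the fit scaled to ganglion cell markers, or -0.87 and -0.67 relative to the median of all genes there. Olfm2 rose 2.80-fold (adjusted p = 0.0232) and Olfm4 2.76-fold (adjusted p = 0.028).

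**Figure D3:**
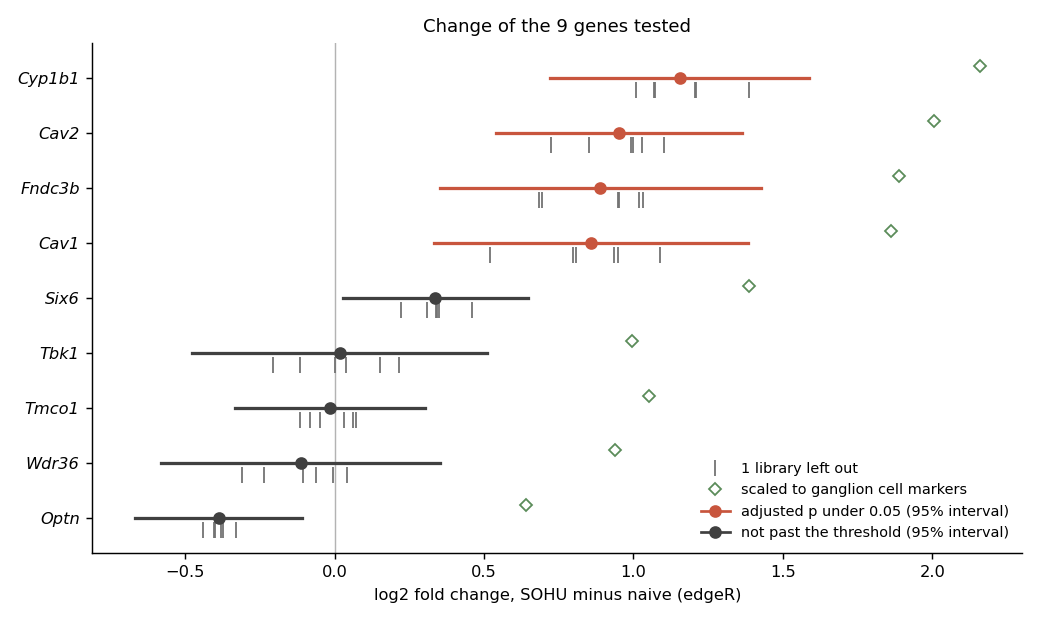
Log2 fold change (SOHU minus naive, edgeR) of the 9 genes tested, with 95% intervals; ticks give the value with 1 library left out and diamonds the value with libraries scaled to the ganglion cell markers. Cyp1b1, Cav2, Fndc3b and Cav1 lie above 0 in every setting drawn, as does Six6, which was not called with all libraries unscaled. Optn, Wdr36 and Tmco1 are negative with all libraries unscaled and positive in the scaled fit.

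How firmly the 4 rises are called depends on single libraries. In edgeR 0 of all genes passed without naive replicate 1 or without naive replicate 3, these 4 included. Unadjusted p-values were under 0.05 there for 2086 and 2209 genes on the higher side and 1833 and 2042 on the lower side, and for 4 of the 9 genes on the higher side in each case. Without naive replicate 2, Cyp1b1 and Cav2 were called but not Cav1 (adjusted p = 0.0879) or Fndc3b (0.0744), and without SOHU replicate 2, Cyp1b1 and Cav1 were called but not Cav2 (0.0514) or Fndc3b (0.129). The direction stayed positive for all 4 genes with any 1 library left out, with values of 0.52 to 1.09 for Cav1, 0.72 to 1.10 for Cav2, 1.01 to 1.39 for Cyp1b1 and 0.68 to 1.03 for Fndc3b. Six6, not called with all libraries, stayed positive as well, at 0.221 to 0.458. The related lists lost calls too. Without SOHU replicate 2, 1 gene was higher in the caveola list, 1 in the TBK1 list and 1 in the eye field list, and without naive replicate 2 there were 3, 1 and 4. Without SOHU replicate 3 all 4 rises were still called. Cav1 also missed the threshold in limma-voom (adjusted p = 0.0521) and with the replicate block (0.0616).

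A further 32 genes linked to human glaucoma, chosen as a list beside the 10, had a median change of 0.01. Of 26 tested, 4 were higher and 1 was lower, beside 8.02% and 5.93% of all genes. With the replicate block 2 were higher, and 1 was higher without naive replicate 2, SOHU replicate 1 or SOHU replicate 2. Abca1, the cholesterol exporter, rose from 11.2 ± 3.43 to 70.2 ± 29.2 CPM (2.65, SE 0.33, edgeR adjusted p = 0.00858). Efemp1, a protein of the extracellular matrix, went from 267.5 ± 64.7 to 503.4 ± 153.6 CPM (1.88-fold, adjusted p = 0.0359). Loxl1, the matrix-crosslinking enzyme gene of exfoliation glaucoma, rose 2.18-fold (adjusted p = 0.033), and Plekha7, a gene of cell junctions linked to angle-closure glaucoma, 1.69-fold (adjusted p = 0.0439). The calcium channel gene Cacna1a fell (-0.74, adjusted p = 0.0309; 0.28 when scaled to the ganglion cell markers, or -0.76 relative to the median of all genes there). The glial and microglial lists given above moved in the same libraries, and their part was not tested. Opa1 (-0.39), Txnrd2 (-0.16), Atxn2 (-0.08), Gas7 (-0.29) and Arhgef12 (0.23) did not pass. Cdkn2a, Lmx1b, Svep1, Asb10 and Ntf5 were among those too low to be tested.

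**Figure D4:**
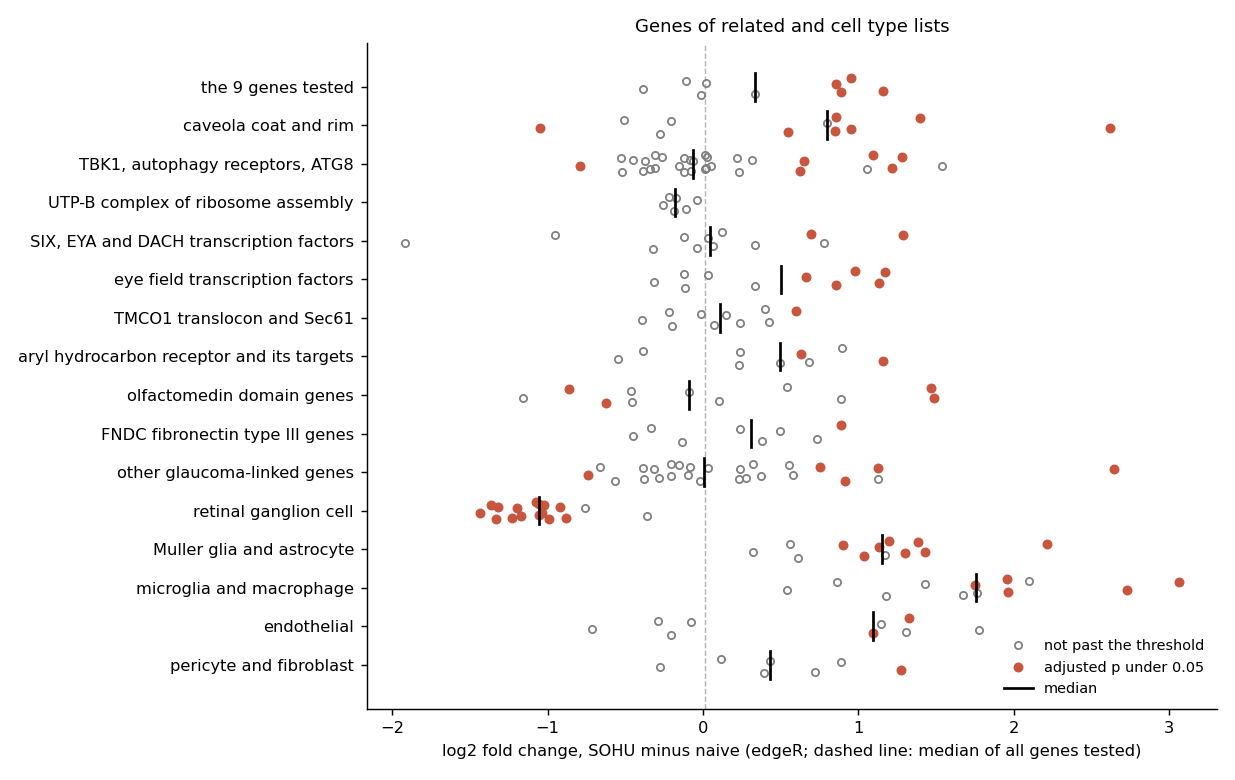
Log2 fold change (SOHU minus naive, edgeR) of each gene tested, by list, with filled points for an adjusted p under 0.05, bars for list medians and a dashed line for the median of all genes tested. The glaucoma genes split into 4 called and 5 not called, from -0.39 to 0.34, beside the ganglion cell list (median -1.06) and the Müller glia and astrocyte list (median 1.15); the median of all genes, 0.01, becomes 1.04 in the fit scaled to ganglion cell markers, where Optn, Wdr36 and Tmco1 turn positive.

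Genes with a like pattern were sought among 10920 genes with a mean of at least 3 log2 CPM, by the root mean square distance between levels in log2 CPM, each centred on its own mean over the 6 libraries. For Cav1 the nearest were Slc38a3, a glutamine transporter gene (0.0842), Llgl1 (0.0983) and Cln3 (0.106). For Cav2 they were Elovl5, of fatty acid elongation (0.061), the N-cadherin gene Cdh2 (0.071) and Acot11 (0.0816). For Cyp1b1 they were 2900026A02Rik (0.139), Sox9 (0.147) and Sinhcaf (0.148), and for Fndc3b Nxn (0.061), Ntn3 (0.105) and Svil (0.108). Optn ran closest to the amyloid precursor gene App (0.026), Alg11 (0.0302) and Cndp2 (0.0369), and Six6 to Mid1ip1 (0.0178), Gtpbp3 (0.0282) and Cstb (0.035). The nearest genes of Tbk1 were Selenon (0.0299), Pex3 (0.0587) and Zfp386 (0.0802), those of Wdr36 were Idh1 (0.0315), BC017158 (0.0642) and Fbxo16 (0.0665), and those of Tmco1 were Nudt2 (0.0299), Mpc2 (0.03) and Mon1b (0.0423). Among the 10 genes, Wdr36 and Tmco1 (0.171), Six6 and Tmco1 (0.199) and Cav1 and Cav2 (0.232) were the closest pairs. The root mean square of a gene's own centred levels was 0.136 for Tmco1, 0.235 for Wdr36, 0.2065 for Six6, 0.508 for Cav1 and 0.514 for Cav2. Both distances to Tmco1 exceed the value of Tmco1 itself, so these pairs are close because the genes varied little. The distance of Cav1 and Cav2 lay below their own values, as did that of Cyp1b1 and Fndc3b (0.294, against 0.628 and 0.530). The nearest genes of Cav1 and of Cav2 given above lay closer to them than they did to each other.

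The start sites of the genes differ in composition. In the 250 bases before a RefSeq start, which was given for 9 of the 10 genes, the number of CpG dinucleotides was 32 for Tmco1, 31 for Tbk1, 25 for Fndc3b, 17 for Six6, 12 for Cyp1b1, 10 for the first start of Cav1 and for Cav2, 8 for Optn and 2 for Myoc. The median over all windows was 6. All but Myoc lay above it.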

How the data were processed

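RNA from an anti-HA pull-down of mouse retina was measured in 3 naive and 3 SOHU libraries, grouped by their labelled titles. The deposited values are unnormalised counts of reads for each gene, with exon coordinates and exon length; the 6 single-library files equalled the columns of the whole table. The submitters' processing notes name build mm10 and, without their order, featureCounts, HISAT2, HISAT, Trim Galore, MultiQC and bcl2fastq 2.17; settings, annotation release and strand: not given in the sources used here.

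Symbols came from GENCODE M21 by Ensembl identifier (55154 of 55335 genes). Genes were filtered with filterByExpr, leaving 17687, scaled with TMM, and tested across all genes with edgeR 4.0.16 in R 4.3.3 (quasi-likelihood, robust, group only), after the script was tested on simulated data. The SE is the change divided by the root of the F statistic. DESeq2 1.42.0, limma 3.58.1 (voom), other scalings, no filter, the replicate number as a block and leaving out each library were alternatives. Log2 CPM used a prior count of 2.

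The genes and lists were chosen with earlier results of these data known. Named genes are every member, up to 4 called genes of each related list by smallest p, and the 3 genes of nearest pattern; further list genes were named after their values were seen. Sting1 was matched as Tmem173. Some genes of the lists are counted but not reported here by name.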

Additional observations from a re-analysis of the deposited data

How the results depend on the processing

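With 1 library left out, genes called higher ranged from 0 to 2051 and lower from 0 to 1845 over all genes (1418 and 1049 with all libraries), and from 0 to 5 and 0 to 1 among the 9 glaucoma genes tested. Genes called lower were 1675 with no filter on low counts and 1729 in DESeq2, which called 1 of the 9 lower. Scaling to the ganglion cell markers gave 11585 genes higher and 2 lower, with 8 of the 9 higher; Wdr36 reversed to 0.94, Tmco1 to 1.05 and Optn to 0.64. Values near 0 also changed sign: Tbk1 (0.02) was -0.008 with upper quartile factors, -0.014 with no filter and -0.005 with the replicate block. With 1 library left out it ranged from -0.205 to 0.215, Wdr36 from -0.31 to 0.041 and Tmco1 from -0.116 to 0.072, and none of these was called. With the replicate block, 1178 genes were higher and 892 lower and Cav1 lost its call (0.80, adjusted p = 0.0616), and no other of the 9 changed its call; the cause was not tested. Whether same-numbered libraries of the groups were paired is not labelled. Their deviations correlated at 0.163, 0.251 and 0.00399, and those of differently numbered libraries at -0.280 to 0.0946, which does not decide it. Of 117 values of single genes under alternatives, 85 kept their direction and their side of the threshold and 12 changed sign. Of those that kept their sign, 15 lost a call and 5 gained one. Among the sign changes, Wdr36 (edgeR adjusted p = 0.0173) and Tmco1 (0.00197) also gained a call, in the fit scaled to the ganglion cell markers. Depth limits Myoc, with 0 to 10 reads a library.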
